A study of Mus musculus with 6 samples.

Results

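The mitosis and cytokinesis genes are 46 genes whose products carry a cell from mitotic entry through chromosome segregation to the separation of the daughter cells. Each was read through the probe sets that the array's probe table assigns to its symbol alone, and the brightest of these over the 6 arrays represented the gene. A probe set of this kind existed for 45 of the 46 genes, and all 45 lay above the filter on low intensity and entered the test among 10824 genes. The transcript of Ccnb1, which encodes cyclin B1, was not analysed here, while its promoter was. The cells were LSK cells, the lineage-negative, Sca-1-positive and c-Kit-positive fraction of bone marrow that holds stem cells and early progenitors, sorted from 3 adult mice of mixed 129-B6 background (278, 279 and 281). Every mouse was Mx1Cre;Ergkd/+;R26Y. It carried an Erg knockdown allele beside a wild-type one, a Cre recombinase under the interferon-inducible Mx1 promoter, and a Rosa26 reporter that makes yellow fluorescent protein (YFP) after Cre has acted. YFP+ cells are labelled Erg-restored (to the wild-type level) and YFP- cells Erg-knockdown (about 40% less Erg), so each mouse gave 1 array of either kind. Age in weeks, sex and any inducing treatment are not given in the sources used here. Because the sort was on YFP, Erg dose cannot be told apart from the action of Cre or from the kind of cell in which Cre acted.

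Entry into mitosis is driven by CDK1 bound to A-type and B-type cyclins, activated by CDC25 phosphatases and reinforced by the kinases PLK1 and Aurora A. Motor proteins and microtubule-binding factors then build the spindle, kinetochores attach chromosomes to it, and the spindle checkpoint holds back CDC20 and the anaphase-promoting complex until every chromosome is attached. Afterwards the central spindle and the actomyosin ring divide the cell. In adult bone marrow most long-term stem cells are quiescent, while the progenitors in the same gate divide often, so these transcripts are commonly read as a sign of cycling.

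Many of these genes are known targets of the MuvB-based complexes, which act through a short promoter element called the cell cycle genes homology region, and of the factor NF-Y, which binds CCAAT. The promoters were searched on both strands for these motifs, from 250 bases before to 50 bases after each annotated start site in RefSeq (GRCm38.p6). A promoter was at hand for 38 of the 46 genes. Counts are of genes, and a gene with several start sites was counted once if any of its promoters held the motif. The homology region, spelled TTTGAA or TTCGAA, stood in 32 of the 38 (84.2%), against 5822 of 26987 other genes of the table (21.6%). At least 1 CCAAT stood in 30 of them (78.9%, against 41.0% of other genes), and at least 2 in 20 (52.6%, against 13.2%). Both motifs in the same promoter were found in 28 genes (73.7%, against 8.52%). An E2F-type motif, spelled TTTCCCGC, TTTGGCGC, TTTCGCGC or TTTGCCGC, was rarer, in 3 of the 38 (7.89%, against 2.60% of other genes). For genes of S phase and DNA replication the pattern differed, with the homology region in 9 of 40 genes (22.5%) and the E2F-type motif in 15 (37.5%). CCAAT was frequent there too, with at least 1 in 24 genes (60%) and at least 2 in 15 (37.5%). Of 116 mitotic genes outside the 46, the homology region stood in 46 (39.7%) and both motifs in 28 (24.1%). None of these words contains another, though neighbouring matches can share end bases, and a match is a description of the sequence and no evidence that a factor binds there.

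The homology region lay close to the start of transcription in most of these genes. In 29 of the 38 a copy lay within 50 bases of the annotated start, which was true of 6.02% of other genes. Among genes that held a homology region at all, the share was 29 of 32 members (90.6%) against 27.9% of other genes. By role, a homology region anywhere in the window was present in 5 of 6 mitotic entry genes, 6 of 7 spindle genes and 4 of 6 kinetochore genes. It was present in 5 of 6 checkpoint genes, 1 of 2 chromosomal passenger complex genes, 6 of 6 cytokinesis genes and 5 of 5 chromosome condensation genes. A spacing noticed after looking at the positions was a pair of CCAAT motifs on 1 strand 31 to 33 bases apart, as in Aurka, Ccnb1, Ccnb2, Cdk1, Hmmr, Spc25 and Ube2c. It was present in 7 of the 38 genes (18.4%, against 0.893% of other genes). Among genes with at least 2 CCAAT motifs it was present in 7 of 20 members (35%, against 6.76% of other genes). Since the window was chosen after these positions were seen, both contrasts are descriptions and no test. The following sequences show where motifs lie for a mitotic kinase (Cdk1) and the activator of the anaphase-promoting complex (Cdc20). A spindle and a cytokinesis gene among the 3 with the smallest unadjusted p (Kif2c and Ect2) are also shown. Not every printed sequence holds the spaced pair or a homology region near the start. Each gives the 250 bases before the start on the strand of the gene, 5′ to 3′, with homology regions and CCAAT motifs of either orientation in capitals. Cdk1 lies at chr10:69352913-69353162 (minus strand), Cdc20 at chr4:118437344-118437593 (minus strand), Ect2 at chr3:27153855-27154104 (minus strand) and Kif2c at chr4:117178773-117179022 (minus strand), all in GRCm38.p6.
Cdk1: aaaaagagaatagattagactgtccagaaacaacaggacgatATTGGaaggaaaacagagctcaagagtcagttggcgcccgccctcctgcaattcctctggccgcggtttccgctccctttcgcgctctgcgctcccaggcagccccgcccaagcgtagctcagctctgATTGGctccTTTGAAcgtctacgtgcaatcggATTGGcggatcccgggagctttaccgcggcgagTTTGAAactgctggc
Cdc20: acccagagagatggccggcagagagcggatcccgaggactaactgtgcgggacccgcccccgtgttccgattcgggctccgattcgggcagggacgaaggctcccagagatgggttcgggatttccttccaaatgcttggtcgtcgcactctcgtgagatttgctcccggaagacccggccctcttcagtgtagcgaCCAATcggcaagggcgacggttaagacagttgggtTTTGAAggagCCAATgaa
Ect2: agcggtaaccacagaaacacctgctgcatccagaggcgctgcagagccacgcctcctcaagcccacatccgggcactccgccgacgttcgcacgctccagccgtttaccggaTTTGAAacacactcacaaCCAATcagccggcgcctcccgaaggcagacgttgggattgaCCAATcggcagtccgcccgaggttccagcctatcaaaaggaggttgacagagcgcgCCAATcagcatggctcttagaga
Kif2c: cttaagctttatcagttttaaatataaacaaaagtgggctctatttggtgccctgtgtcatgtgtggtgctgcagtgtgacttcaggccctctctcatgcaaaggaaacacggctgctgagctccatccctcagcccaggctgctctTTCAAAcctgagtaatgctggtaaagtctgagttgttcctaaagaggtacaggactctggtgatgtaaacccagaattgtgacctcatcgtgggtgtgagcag

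Positions are those of the leftmost base of each motif as printed. In Cdk1 the homology regions lay 71 and 15 bases before the start, interleaved with reversed CCAAT motifs 208, 80 and 48 bases before it. In Cdc20 a single homology region 18 bases before the start was flanked by CCAAT motifs at 53 and 8 bases. Ect2 held 3 CCAAT motifs, at 120, 79 and 23 bases, behind a homology region at 138 bases, and a further homology region beginning at base 16 after the start, outside the printed stretch. Kif2c had a reversed homology region at 103 bases and no CCAAT motif in the window. In other members the homology region began after the start (31 bases in Plk1, 33 in Aurka and 8 in Ttk) or shortly before it (29 bases in Ube2c), and 30 bases around it are shown for Plk1 (chr7:122159453-122159482, plus strand), Aurka (chr2:172370521-172370550, minus strand), Ube2c (chr2:164769888-164769917, plus strand) and Ttk (chr9:83834684-83834713, plus strand), with the element in capitals. In Ube2c and Ttk it is reversed on the strand of the gene.
Plk1: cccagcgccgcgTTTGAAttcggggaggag
Aurka: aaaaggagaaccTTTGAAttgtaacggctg
Ube2c: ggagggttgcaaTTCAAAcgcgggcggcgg
Ttk: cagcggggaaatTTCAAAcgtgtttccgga

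**Figure D1:**
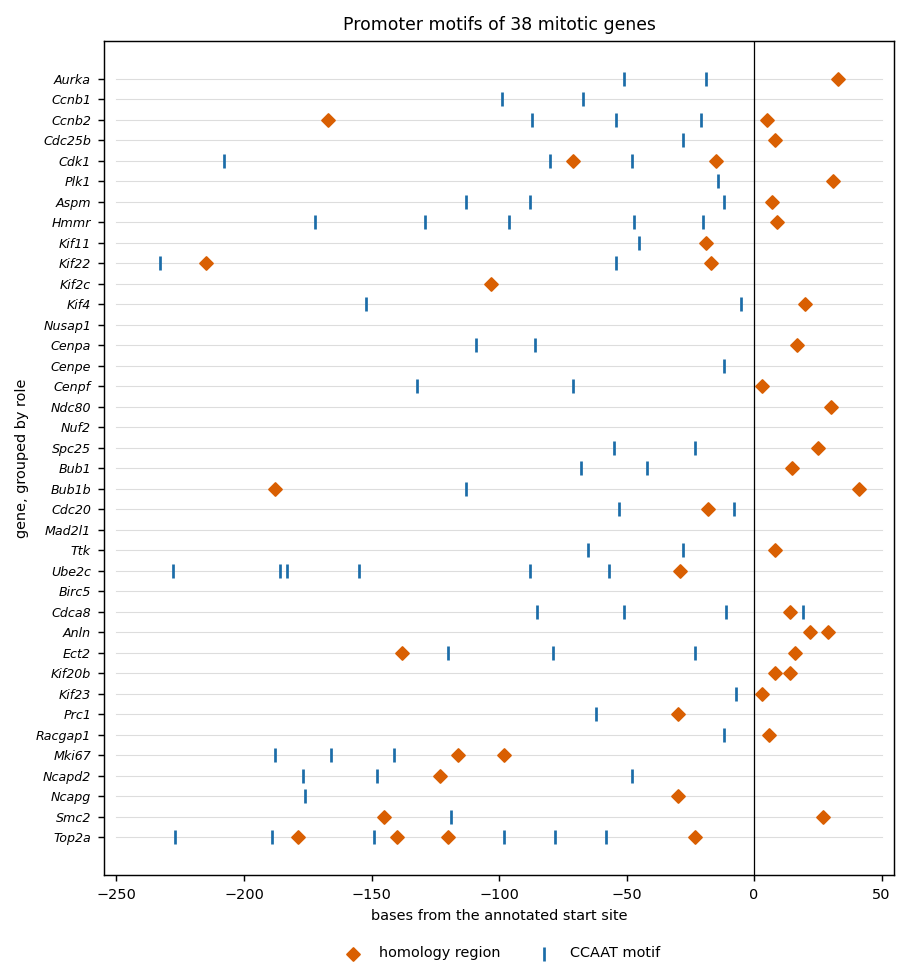
Positions of the cell cycle genes homology region (diamonds) and of CCAAT motifs (ticks) in the promoters of 38 mitotic genes, in bases from the annotated start site (x axis, line at the start), 1 gene per line grouped by role; for genes with several starts the most downstream is drawn. In 29 of the 38 genes a homology region lies within 50 bases of the start, and CCAAT motifs lie mostly before it.

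The arrays themselves set limits on every value below. Arrays had a mean intensity of 1031 to 1071 and a median of 135 to 157. Erg, the gene named in the labels, read 2764 ± 124 in restored-labelled and 2810 ± 140 in knockdown-labelled cells (SD, n = 3) at its brightest probe set (adjusted p = 0.936, limma). This probe set did not separate the groups, which are named by their labels. On the restored-labelled array of mouse 279 the log2 ratio of 3′ over 5′ control probe sets was 0.677 for Gapdh and 0.738 for Actb, against 0.426 to 0.506 and 0.487 to 0.589 on the other arrays, a sign of RNA quality or amplification that sets this array apart. Kit, which defines the gate, read 3972 to 5206, and the 8 measured of 10 stem cell and gate markers were all above the filter. These 8 summed to 36216 to 36435 in restored-labelled and 38044 to 40688 in knockdown-labelled arrays. The 9 measured of 10 B and plasma cell markers summed to 10976 to 12778 in restored-labelled and 16570 to 26898 in knockdown-labelled cells. Of these, Ms4a1, Cd79a and Pax5 were below the filter and Pax5 was listed at 0 on 1 array. The markers above the filter did not move together. Ighm, Jchain, Mzb1 and Sdc1 were higher in the knockdown-labelled array of each mouse, Cd79b was lower in each, and Vpreb1 was mixed. The 8 of 8 megakaryocyte markers summed to 9927 to 13251 against 9116 to 10252, the 8 of 8 macrophage markers (C1qa, C1qc and Mrc1 below the filter) to 4602 to 6111 against 3226 to 5130, the 11 of 12 neutrophil markers to 37143 to 68736 against 45818 to 74142, and the 8 of 10 erythroid markers (Alas2, Hba-a1 and Slc4a1 below the filter) to 20522 to 26808 against 20855 to 31915. In such sums bright genes weigh most, as Mpo does in the neutrophil list at 11446 to 13607. The sums do not show that mature cells of these kinds were present. Whether they bear on the mitotic transcripts was not tested.

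Mitotic transcripts differed little between the labelled populations. Every difference is the knockdown-labelled value minus the restored-labelled one in units of log2(intensity + 16), followed by its standard error from a paired limma fit. No member passed an adjusted p of 0.05 (0 of 45, smallest adjusted p = 0.771 in limma with Benjamini-Hochberg adjustment over 10824 genes), nor did any other gene (0.00% of all genes tested). At unadjusted p below 0.05 there were 3 members, Dlgap5 and Kif2c on the lower side and Ect2 on the higher, that is 6.67% of members against 5.84% of all genes (1.88% lower and 3.96% higher), so this share lies near the background. The count was 0 without mouse 278 (2.38% of all genes passed), 1 without mouse 279 (6.03%) and 1 without mouse 281 (6.68%). The differences ran from -0.37 to 0.24 with a median of -0.067, against -0.00015 over all genes tested. Of the 45 members 30 (66.7%) had a difference below 0, against 50.0% of all genes. The median size of a difference regardless of sign was 0.085 in the members and 0.10 in all genes. The half-width of the 95% interval had a median of 0.26 over the members, and the bounds of all intervals lay between -0.79 and 0.58. In sorted bulk populations fewer cycling cells and less mitotic RNA per cell cannot be told apart.

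The 3 mice did not show the same picture. In mouse 278, 35 of 45 members were lower in the knockdown-labelled array (41.3% of all genes were), with a median of -0.069. In mouse 279 the count was again 35 (55.2% of all genes), with a median of -0.14, whereas in mouse 281 it was 17 (42.1% of all genes), with a median of 0.031. The same direction in all 3 mice was found for 12 members on the lower side (26.7%, against 12.4% of all genes) and for 4 on the higher side (8.89%, against 19.8%). Groups without any overlap of intensities were found for 4 members lower in the knockdown-labelled cells (8.89%, against 5.08%), which were Aurka, Cdc25c, Dlgap5 and Kif2c. They were also found for 4 members higher in them (8.89%, against 10.1%), which were Ccna2, Nusap1, Ect2 and Smc2.

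2 arrays stood apart for the members. The restored-labelled array of mouse 279 gave the highest intensity of the 6 arrays for 31 of 45 members (68.9%), where 38.9% of all genes were highest on it. The knockdown-labelled array of mouse 278 gave the lowest for 19 of 45, where 11.5% of all genes were lowest on it. The members' median deviation from each gene's mean over the arrays was 0.14 on the first and -0.089 on the second, and between -0.021 and 0.024 on the other 4. When that array and the mouse term were dropped, 27 of 45 members remained below 0, with a median of -0.019 (40.8% of all genes below 0, median 0.024). Without mouse 279 altogether 25 were below 0, with a median of -0.020 (39.8% of all genes, median 0.029). In each of these settings the share of members below 0 was above that of all genes. The 3′ over 5′ ratios of the restored-labelled mouse 279 array are given above, and their part in the result was not tested. When every array was centred on its own median, 43 of 45 members were below 0, as were 75.0% of all genes, whose median then was -0.11.

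**Figure D2:**
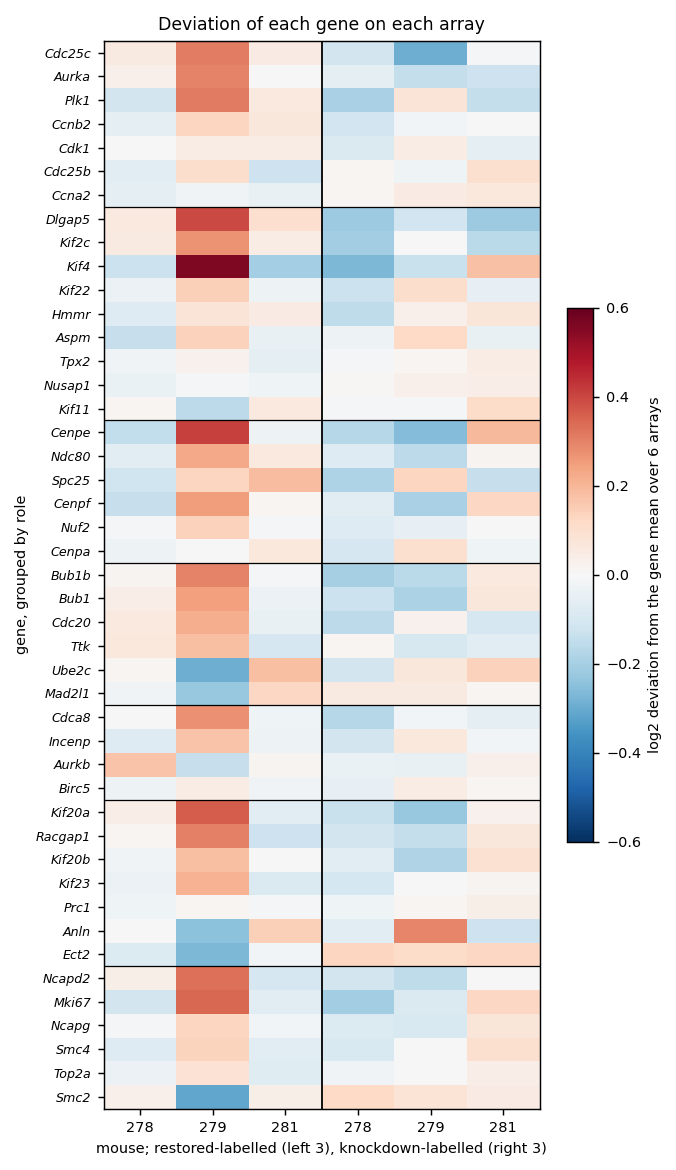
Deviation of each of 45 mitotic genes (rows, grouped by role) from its own mean over the 6 arrays, on the log2(intensity + 16) scale (colour), for restored-labelled (left 3 columns) and knockdown-labelled arrays (right 3 columns) of mice 278, 279 and 281. The restored-labelled array of mouse 279 holds the highest value of 31 genes, and the lowest value of 7 genes (Aurkb, Kif11, Ect2, Smc2, Anln, Ube2c and Mad2l1).

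Among the regulators of mitotic entry, 5 of the 7 measured genes had a difference below 0 and the median was -0.090. None had an unadjusted p below 0.05. Plk1, the polo-like kinase that drives entry and spindle assembly, read 1822, 2443 and 2049 in the restored-labelled arrays of mice 278, 279 and 281, and 1716, 2077 and 1778 in the knockdown-labelled arrays. It was lower in each mouse, but the groups overlapped because mouse 279 was high in both. The difference was -0.17 ± 0.076 (adjusted p = 0.771, limma; 0.887-fold), and -0.062 when the restored-labelled mouse 279 array and the mouse term were dropped. Aurka, which encodes the centrosomal kinase Aurora A, read 2022, 2435 and 1979 against 1897, 1792 and 1812. All knockdown-labelled arrays lay below all restored-labelled ones, the nearest being 1897 and 1979, and the difference was -0.22 ± 0.10. It was -0.11 without mouse 279 and -0.12 with only its restored-labelled array and the mouse term dropped. Cdc25c, a phosphatase that activates CDK1, differed by -0.28 ± 0.14 with groups that did not overlap either, with single-mouse values of -0.16, -0.60 and -0.064. Ccna2, which encodes cyclin A2, went the other way. It read 6681, 6821 and 6719 in restored-labelled and 6983, 7166 and 7242 in knockdown-labelled arrays, so every knockdown-labelled array was the brighter, by a difference of only 0.081 ± 0.070, and its next brightest probe set gave -0.033. Cyclin B2 (Ccnb2) gave -0.090 ± 0.071 and Cdk1, the kinase that both cyclins activate, -0.063 ± 0.072, each lower in all 3 mice by small amounts. Cdc25b gave 0.055 ± 0.10 with mice on both sides of 0.

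The spindle genes held both members with the smallest unadjusted p. Of 9 genes 5 had a difference below 0, and the median was -0.033. Dlgap5, a kinetochore-fibre protein that stabilizes spindle microtubules, read 952, 1206 and 981 in restored-labelled and 784, 842 and 783 in knockdown-labelled cells. The groups did not overlap, and the restored-labelled array of mouse 279 stood highest. The difference was -0.37 ± 0.086 (unadjusted p = 0.0130, adjusted p = 0.771, limma), which is 0.775-fold, and a second, dimmer probe set of Dlgap5 gave -0.24 ± 0.084. Without mouse 279 the difference was -0.30, and with only its restored-labelled array and the mouse term dropped it was -0.26. Kif2c, a kinesin that depolymerizes microtubule ends at centromeres, read 1147, 1338 and 1142 against 956, 1106 and 986. Here too the groups were separate, with 1142 and 1106 as the nearest arrays. The difference was -0.25 ± 0.070 (unadjusted p = 0.0252, adjusted p = 0.771, limma; 0.843-fold), nearly equal in the 3 mice at -0.26, -0.27 and -0.21, and the next brightest probe set gave -0.23 ± 0.14. Dropping the mouse term together with the highest array (mouse 279, restored-labelled) gave -0.17.

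Other spindle genes lay close to 0. Tpx2, which nucleates microtubules around chromosomes and activates Aurora A, read 5800, 5998 and 5675 against 5851, 5928 and 6072, an overlapping range, and its difference of 0.031 ± 0.073 has a 95% interval from -0.17 to 0.24. Kif11, the motor that pushes the spindle poles apart, gave 0.057 ± 0.077. The chromosome-binding kinesins Kif22 and Kif4 gave -0.052 ± 0.071 and -0.15 ± 0.23. Kif4 had the widest error of all members, since it read 2402 on the restored-labelled array of mouse 279 and between 1344 and 1833 elsewhere, and its differences were -0.14, -0.69 and 0.38 in the 3 mice. The spindle-pole gene Aspm (0.028 ± 0.075) and the hyaluronan receptor gene Hmmr (-0.033 ± 0.072), whose product also binds microtubules, did not separate the groups. Nusap1, which bundles spindle microtubules, was higher in every knockdown-labelled array by 0.048 ± 0.069, a range of 5200 to 5320 against 5046 to 5149.

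**Figure D3:**
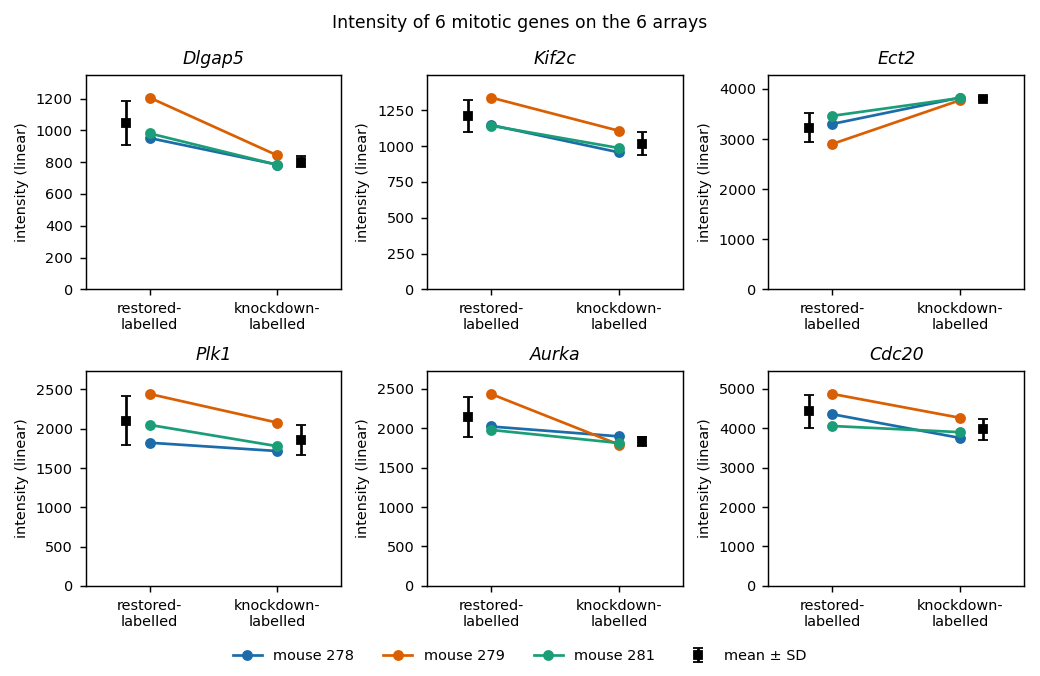
Linear intensity (y axis, from 0) of Dlgap5, Kif2c, Ect2, Plk1, Aurka and Cdc20 in restored-labelled and knockdown-labelled cells, with a line joining the arrays of each mouse and black squares for the mean ± SD of 3 arrays. Dlgap5 and Kif2c are lower and Ect2 is higher in the knockdown-labelled array of every mouse, and mouse 279 shows the highest restored-labelled value in every panel except Ect2.

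All 6 kinetochore and centromere genes had a difference below 0, with a median of -0.11, but no group separated and none had an unadjusted p below 0.05. Ndc80, Nuf2 and Spc25 encode subunits of the NDC80 complex, which binds microtubule ends. Ndc80 read 1329, 1627 and 1444 against 1316, 1242 and 1403. Only mouse 279 showed a wide gap, and the difference was -0.15 ± 0.11 (-0.014, -0.38 and -0.042 in the single mice, and -0.028 without mouse 279). Spc25 read 3196, 3808 and 3953 against 3056, 3808 and 3158, with mouse 281 apart and mouse 279 level, for a difference of -0.13 ± 0.098, or -0.19 without mouse 279 and -0.032 without mouse 281. Nuf2 read 4123, 4565 and 4124 against 3924, 3999 and 4157. Its difference of -0.083 ± 0.081 again came from mouse 279 for the most part, at -0.19, and was -0.030 without it. The 3 subunits of the complex therefore did not follow a common pattern across the mice. The kinetochore motor gene Cenpe gave -0.16 ± 0.20 and Cenpf, a large microtubule-binding kinetochore protein, -0.085 ± 0.15, each below 0 by over 0.4 in mouse 279 and above 0 in mouse 281. Cenpa, the histone variant that marks centromeres, gave -0.020 ± 0.080. Without mouse 279 the median of the 6 genes was -0.029, and 4 of them were below 0.

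The spindle checkpoint genes and those of the machinery the checkpoint restrains had a median of -0.12, with 4 of 6 below 0. Cdc20, the activator that the checkpoint holds back, read 4352, 4867 and 4055 in restored-labelled and 3750, 4261 and 3898 in knockdown-labelled cells. It was lower in each mouse while the groups overlapped, and its difference was -0.15 ± 0.077 (adjusted p = 0.771, limma), with -0.11 and -0.18 at its other probe sets. It was -0.083 when the restored-labelled mouse 279 array and the mouse term were dropped. Bub1b, which encodes the checkpoint protein BUBR1, read 3406, 4144 and 3343 against 2933, 3014 and 3508. Mice 278 and 279 were lower and mouse 281 was not, for a difference of -0.20 ± 0.13, or -0.073 without mouse 279 and -0.34 without mouse 281. Its partner kinase gene Bub1 gave -0.17 ± 0.13 with the same split between mice, although another Bub1 probe set gave 0.17 ± 0.16. Ttk, the kinase that starts checkpoint signalling, gave -0.096 ± 0.096, and Mad2l1, the checkpoint protein that binds CDC20, gave 0.079 ± 0.11. Ube2c, the ubiquitin-conjugating enzyme of the anaphase-promoting complex, read 4592, 3713 and 5163 against 4216, 4773 and 5001. It was the lowest on the restored-labelled array of mouse 279, opposite to most members, and its difference was 0.064 ± 0.13, or -0.084 without mouse 279.

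The chromosomal passenger complex corrects faulty attachments and joins the central spindle at division. Its 4 genes had a median of -0.039, with 3 below 0. Cdca8, which encodes borealin, read 6999, 8456 and 6868 against 6206, 6925 and 6719, lower in each mouse with overlapping groups. Its difference was -0.16 ± 0.087, or -0.10 without mouse 279, and 2 dimmer probe sets gave -0.25 ± 0.14 and -0.22 ± 0.16. Incenp, the scaffold of the complex, read 6646, 7879 and 6854 against 6497, 7308 and 6928, a difference of -0.042 ± 0.074. Birc5, which encodes survivin, read 8026, 8467 and 8092 against 7915, 8444 and 8267. Its groups overlapped almost wholly, with a difference of 0.0023 ± 0.070 and a 95% interval from -0.19 to 0.20. Aurkb, the kinase of the complex, gave -0.035 ± 0.095, with mouse 278 at -0.21 and the other mice above 0.

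Cytokinesis genes went both ways, with 4 of 7 below 0 and a median of -0.056. Ect2, the exchange factor that activates RhoA at the cleavage plane, was the only member higher at an unadjusted p below 0.05. It read 3301, 2902 and 3462 in restored-labelled and 3826, 3776 and 3818 in knockdown-labelled cells. The knockdown-labelled arrays lay close together above all restored-labelled ones. The difference was 0.24 ± 0.085 (unadjusted p = 0.0463, adjusted p = 0.771, limma), which is 1.18-fold, and it was 0.14 with centred arrays and 0.18 without mouse 279. Racgap1, the subunit of the centralspindlin complex that binds Ect2, gave -0.12 ± 0.15, and Kif23, the motor of that complex, -0.056 ± 0.093. Kif20a, a motor that brings passenger proteins to the midzone, read 1505, 1886 and 1398 against 1335, 1249 and 1489. Its difference was -0.22 ± 0.16, with -0.59 in mouse 279 and 0.090 in mouse 281. It was -0.041 without the former and -0.38 without the latter. Prc1, which bundles midzone microtubules, read 5430, 5571 and 5475 against 5423, 5564 and 5660, and differed by 0.015 ± 0.070. Anln, which encodes the ring scaffold anillin, gave 0.069 ± 0.19 with mice spread from -0.27 to 0.54, and Kif20b gave -0.11 ± 0.12. Without mouse 279 the median of the cytokinesis genes was 0.020, and 2 of the 7 were below 0.

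Genes of chromosome condensation had a median of -0.031, with 3 of 6 below 0. The condensin ATPase gene Smc2 read 5006, 3944 and 5018 against 5322, 5200 and 5070. Every knockdown-labelled array was higher, with the restored-labelled array of mouse 279 far below the rest. The difference was 0.17 ± 0.11, or 0.051 without mouse 279, and the next brightest probe set gave 0.029. Its partner Smc4 gave 0.0043 ± 0.092. The condensin subunit gene Ncapd2 read 4521, 5543 and 4107 against 4075, 3959 and 4402, high only on the restored-labelled array of mouse 279, for a difference of -0.18 ± 0.14. It was -0.025 without mouse 279 and -0.32 without mouse 281. Another subunit gene, Ncapg, gave -0.067 ± 0.094. Top2a, the topoisomerase that untangles sister chromatids, read 8543, 9304 and 8325 against 8625, 8736 and 8985. The difference was 0.011 ± 0.080 at this probe set and -0.39 ± 0.30 at a far dimmer one. Mki67, which coats mitotic chromosomes and is the usual marker of cycling cells, gave -0.11 ± 0.15. It read 8716 on the restored-labelled array of mouse 279 and 5936 to 7468 on the other arrays, with the mice at -0.099, -0.43 and 0.19.

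The medians of the fitted differences varied between the roles. They ran from -0.12 for checkpoint genes and -0.11 for kinetochore genes to -0.033 for spindle and -0.031 for condensation genes, with entry genes at -0.090, cytokinesis genes at -0.056 and the passenger complex at -0.039. Within mouse 279 the same medians ran from -0.29 for kinetochore genes to -0.041 for spindle genes, and within mouse 281 from -0.069 for entry genes to 0.10 for condensation genes. Entry genes were the role with a median below 0 by over 0.05 in each of the 3 mice. Without mouse 279 the order changed. The medians then were -0.094 for entry genes, -0.054 for checkpoint genes (6 of 6 below 0) and for the passenger complex, -0.029 for kinetochore, 0.014 for spindle, 0.020 for cytokinesis and 0.049 for condensation genes (1 of 6 below 0). The order also changed when the probe sets of a gene were averaged. Medians were then -0.11 for kinetochore, -0.090 for entry, -0.086 for condensation, -0.068 for passenger complex and -0.039 for checkpoint genes. Cytokinesis genes were at -0.0084 and spindle genes at 0.0043. These are descriptions of 4 to 9 genes that share arrays, and no test between roles was made.

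**Figure D4:**
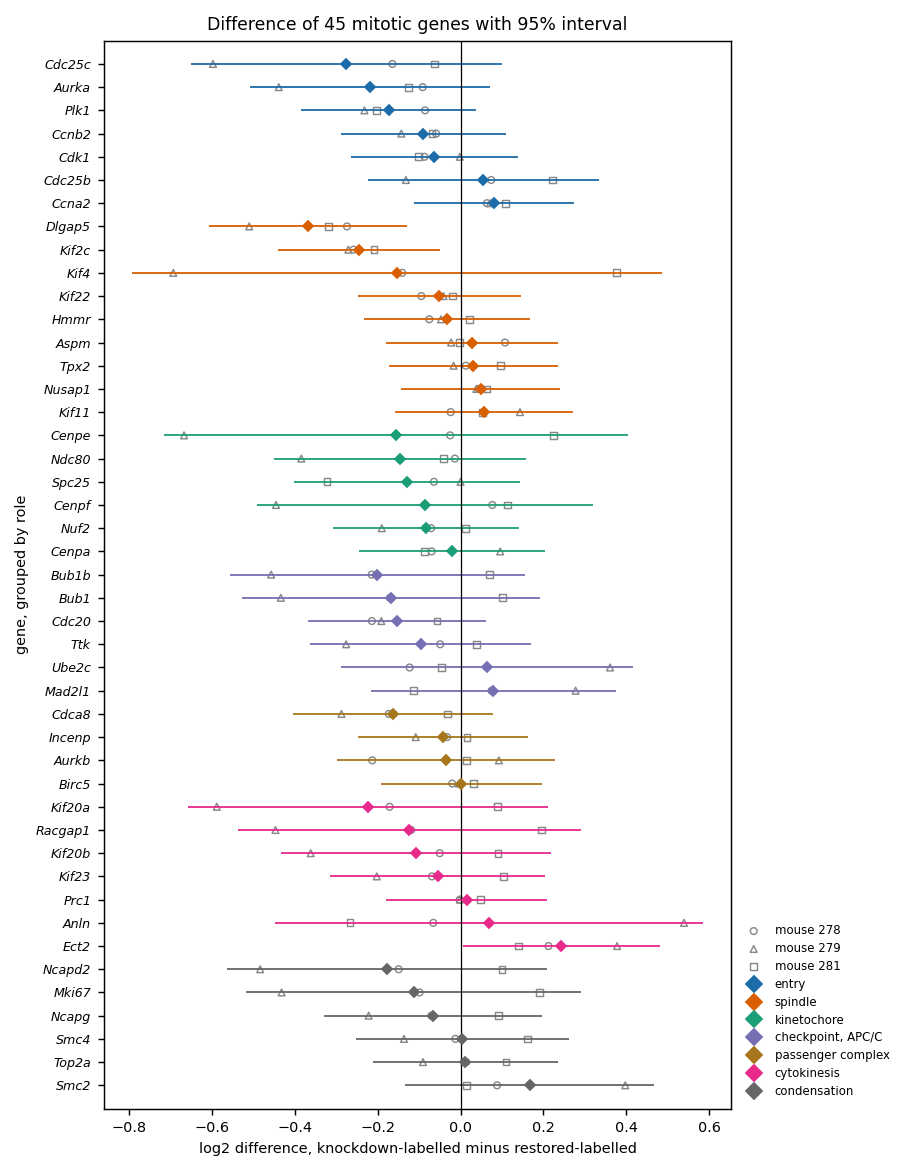
Fitted log2 difference, knockdown-labelled minus restored-labelled, of 45 mitotic genes with its 95% interval (coloured by role) and the difference in each mouse (open symbols). The intervals of Dlgap5 and Kif2c lie below 0 and that of Ect2 lies above it, and all others include 0.

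**Figure D5:**
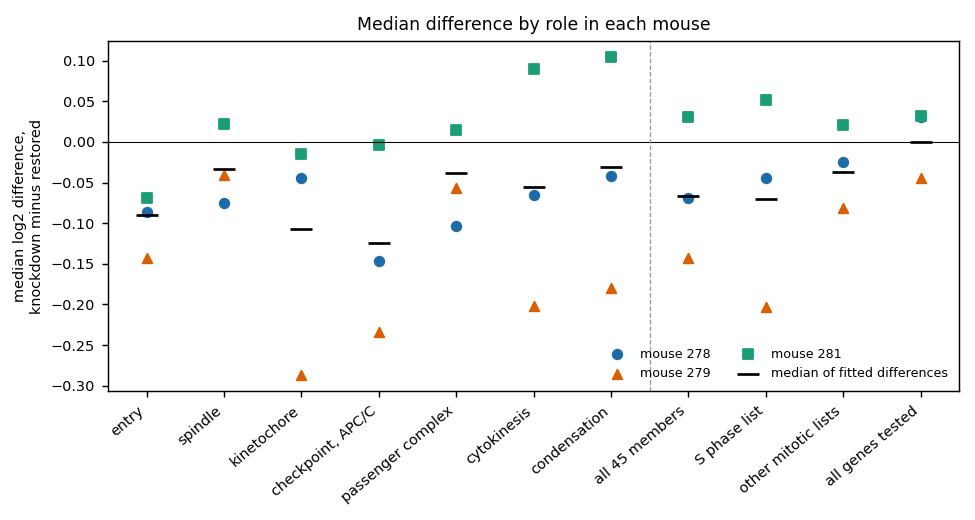
Median log2 difference in each mouse (symbols) and of the fitted values (bars) for the 7 roles, for all 45 members and, right of the dashed line, also for the S phase list, other mitotic lists and all genes tested. Mouse 281 (squares) lies highest in each role, and mouse 279 (triangles) lies lowest except for spindle and passenger complex genes.

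Probe sets of a gene did not always tell the same story. Dimmer probe sets were fitted with all probe sets above the filter. The 45 members had 106 probe sets of their own, 93 of them above the filter, and 30 members had more than 1 of these. Of 48 dimmer probe sets above the filter 31 had the same sign as the brightest of their gene, and for 16 of the 30 members all probe sets had the same sign. All 3 probe sets of Cdc20, of Cdca8, of Kif11 and of Kif22 went the same way, while the 5 of Aspm, of Hmmr and of Smc2 were split. For Cenpf a dimmer probe set gave 0.34 ± 0.12 where the brightest gave -0.085.

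Mitotic genes outside the 46 showed how far the pattern reached. Of 132 tested genes in 6 further mitotic lists 76 were below 0, with a median of -0.037, and 2 lower and 1 higher had an unadjusted p below 0.05. Of all genes tested 50.0% were below 0, and 1.88% lower and 3.96% higher had such a p. Among other checkpoint and anaphase-promoting complex genes 22 of 26 were below 0, with a median of -0.088 and Espl1, the protease separase, at -0.34 ± 0.12 and Cdc27, a subunit of the complex, at 0.19 ± 0.091. Among other spindle and centrosome genes 21 of 28 were below 0, with a median of -0.084 and Cep152, a centriole duplication factor, at -0.32 ± 0.11 and the kinesin gene Kifc1 at -0.26 ± 0.13. Other entry regulators split 10 to 11 with a median of 0.00061, where Mybl2, a transcription factor of the MuvB complex, gave -0.36 ± 0.12 and Lin9, a subunit of it, 0.15 ± 0.088. Other kinetochore genes split 13 to 13, with the cohesin protector Sgo2a at 0.30 ± 0.15 and Ska2, a kinetochore gene, at 0.13 ± 0.071. Other cytokinesis genes had 5 of 16 below 0, with the formin gene Diaph3 at 0.34 ± 0.12 and Cep55, an abscission gene, at 0.16 ± 0.079. Other condensin and cohesin genes had 5 of 15 below 0, with the cohesin factor Cdca5 at -0.22 ± 0.11 and the cohesin loader gene Mau2 at 0.17 ± 0.089. Genes of S phase and DNA replication resembled the members, with 34 of 47 below 0, a median of -0.070, no gene at unadjusted p below 0.05 and 34 of 47 highest on the restored-labelled array of mouse 279 (38.9% of all genes). Its genes with the smallest p were the clamp loader gene Rfc5 at -0.22 ± 0.095 and Gins2, of the replicative helicase, at -0.16 ± 0.088. The adjusted p of every gene named in these lists was 0.771 (limma).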

How the data were processed

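RNA of 6 sorted samples was amplified (NuGEN Ovation V2) and read on Affymetrix mouse genome arrays, per the labels. The deposited values are linear probe set intensities summarized by the authors; their background correction and normalization are not given in the sources used here. Precision is limited by having 6 arrays. Of 45101 probe sets 64 controls were left out. The probe table gives 34945 of the rest 1 symbol and 932 several, and 9160 are unnamed here. Intensities were taken to log2(value + 16), which understates fold changes of dim genes. Probe sets with a mean at or above the median (an intensity of 143, 22519 probe sets) were kept, with the brightest single-symbol probe set per gene (10824 genes). The comparison was fitted with limma 3.58.1 (lmFit and eBayes) in R 4.3.3 with mouse as a blocking term because both populations came from the same animal, and Benjamini-Hochberg adjustment over all genes. Same-mouse correlations of deviations from the group means were 0.44, -0.17 and -0.29 for mice 278, 279 and 281, and the pairing was kept from the labels. The fit was tested on simulated data with independent noise between arrays. That test does not measure power for differences as small as those of the members. Members, lists and roles were chosen with earlier results of these data known. Full values are given for the 2 members with the smallest p and the brightest in each role. Ranges or single-mouse values of Cdc25c, Kif4, Mki67 and Nusap1 were added after their values were seen. Remarks on single mice or dimmer probe sets of other members, such as Aurkb, Anln, Cenpe, Cenpf and Bub1, also lay outside this rule. Outside the members, genes are named from the 2 smallest p of each list. Figures were drawn with matplotlib 3.10.9.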

Additional observations from a re-analysis of the deposited data

How the results depend on the processing

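In 16 alternatives 0 members passed an adjusted p of 0.05 in limma, and the smallest adjusted p of a member was 0.520. The number of members at unadjusted p below 0.05 was 6 with centred arrays, all lower, 1 with no filter, 1 when probe sets of a gene were averaged, and 0 to 1 when a mouse was left out, against 3. Of all genes 8.97% passed this limit with centred arrays, 5.95% with no filter and 5.67% with averaged probe sets. The share was 2.38% to 6.68% when a mouse was left out, against 5.84% in the main fit. With no replicate block the number of members was 4 (5.86% of all genes passed), 1 more than with the pairing. In either fit 0 members passed after adjustment. The number of members below 0 ran from 25 without mouse 279 to 43 with centred arrays. The median was -0.17 with centred arrays. Centring also turned Birc5 to -0.10, Ccna2 to -0.026, Prc1 to -0.092, Top2a to -0.096, Tpx2 to -0.076 and Ube2c to -0.043. Leaving out a mouse gave -0.012 to 0.013 for Birc5, -0.0019 to 0.023 for Prc1, -0.038 to 0.062 for Top2a, -0.0021 to 0.055 for Tpx2 and -0.084 to 0.16 for Ube2c. With the mouse term and the restored-labelled mouse 279 array dropped, Incenp was 0.032 and Ube2c -0.066. The mean over probe sets gave -0.19 for Top2a. The next brightest probe set, a choice made after seeing the data, gave -0.033 for Ccna2, -0.39 for Top2a and -0.022 for Tpx2. The cause of these turns was not tested. The other 331 values of the 21 named members kept their sign. The array weights were estimated without full convergence.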

Other observations

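Dimmer probe sets of several mitotic genes read low on a single array. Of the 48 dimmer member probe sets above the filter, 5 lay more than 0.5 below their own mean (log2) on the knockdown-labelled array of mouse 279, 1 on the restored-labelled array of that mouse and 0 on each of the other 4 arrays. For other genes the shares on these arrays were 4.62%, 7.38% and 0.780% to 2.04%. A dimmer Ttk probe set read 640 on the knockdown-labelled array of mouse 279 and 1158 to 1691 on the others, while the brightest Ttk probe set read 1477 there and 1472 to 1793 on the others. A dimmer Top2a probe set read 310 there and 584 to 752 elsewhere, and a dimmer Ncapd2 probe set 530.5 there and 939 to 1107 elsewhere. A dimmer Incenp probe set read 395 there and 665 to 970 elsewhere, and a dimmer Smc2 probe set 142 there and 160 to 267 elsewhere. These probe sets were chosen after their values were seen. Which part of each transcript they read was not analysed here.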
